A study of Homo sapiens with 4 samples.

Results

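The genes described here encode the machinery that licenses replication origins and copies DNA at the fork: the origin recognition complex and the MCM helicase with its loaders, the factors that start the helicase, the primase and polymerases, the sliding clamp and its loader, and the proteins that guard the fork and package the new DNA. They were chosen by name, as 50 symbols, and all 50 were found among the 16057 genes of the deposited table. The cells were MM.1S, an established human multiple myeloma line, a cancer of plasma cells. They received 350 nM JG342, which inhibits the chaperone HSP70 at an allosteric site, or DMSO, the solvent, for 26 h. RNA of each treatment was sequenced in 2 libraries, numbered 1 and 2, and the series describes them as biological duplicates. All 4 libraries come from this 1 line, so the values speak for MM.1S only.

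Replication is prepared in G1, when the origin recognition complex, CDC6 and CDT1 load MCM helicases onto DNA, and geminin blocks loading once S phase has begun. The kinase of CDC7 and DBF4, together with cyclin-dependent kinases, then has CDC45 and GINS join the MCM ring, and polymerases, clamp and clamp loader assemble behind it. Many of these genes are transcribed from promoters bound by E2F factors, so their RNA is abundant in dividing cells and low in resting ones. In bulk RNA, fewer cells in S phase and less RNA per cell cannot be told apart.

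Levels are in TPM, the share of all transcripts corrected for transcript length, so levels of different genes can be compared. Changes are differences of log2(TPM + 1), JG342 minus DMSO, with the standard error (SE) of a limma fit across 12042 genes, and the Benjamini-Hochberg adjusted p is over all of those genes. A gene is said to have risen or fallen only at an adjusted p under 0.05. All 50 members passed the filter of a mean of at least 1 TPM.

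The libraries summed to between 994463 and 994718 TPM, and their depth, approximated from the steps between low values, was 8780000 to 9850000 reads. The member with the fewest reads, POLE2, had about 42.2 in JG342 replicate 1. All 9 plasma cell markers were above 1 TPM in each library, with sums of 14570 to 14836 TPM with DMSO and 10029 to 10667 TPM with JG342. The markers did not move together. JCHAIN, the joining chain of antibodies, was at 9907 and 10384 TPM with DMSO and 5732 and 5431 TPM with JG342, and TNFRSF17 was also lower without overlap. The plasma cell transcription factor IRF4 was at 353 and 353 TPM with DMSO and 589 and 615 TPM with JG342, and PRDM1 was also higher without overlap, while the other 5 markers had overlapping groups. Markers of fibroblasts summed to at most 0.22 TPM, and PAX5, CD8A, CD14, CSF1R and EPCAM stayed under 1 TPM in each library. Other markers were detected: the monocyte marker LYZ at 37.0 to 46.2 TPM, and the T cell markers CD3E at 5.49 and 7.70 TPM with DMSO and 5.26 and 3.21 TPM with JG342 and CD3G at 3.99 and 5.10 TPM with DMSO and 9.34 and 7.92 TPM with JG342. The last 2 differed in opposite directions without overlap. CIITA, a marker of mature B cells, was at 11.1 and 10.7 TPM with DMSO and 9.04 and 8.37 TPM with JG342, while the T cell, monocyte and epithelial sums overlapped between treatments (9.55 to 14.7, 37.4 to 46.2 and 4.42 to 8.70 TPM). The part of these markers in the results was not tested.

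Promoter sequences are shown first, because many of these genes are transcribed from promoters bound by E2F factors. The choice by name used no sequence, but it took replication genes, so the share with a match is not independent of it. RefSeq promoters (GRCh38.p14, 250 bases before the start of transcription to 50 after) were matched by symbol for 44 members. MCM4, MCM5, GINS4, POLD3, RPA2 and RPA3 had no entry. The search was for TTTCCCGC, TTTCGCGC, TTTGCCGC and TTTGGCGC, the forms of the E2F consensus, on both strands, where matches on opposite strands may overlap. At least 1 match was present in 19 of the 44 promoters (43.2%), against 3.33% of all 27305 promoters of the table and 5.57% of the 9617 promoters matched to fitted genes. The share was 50% for the 24 members with a promoter that fell and 35% for the 20 that did not pass the test. The members with a match had a median log2 fold change of −0.45 (n = 19) and those without −0.39 (n = 25), and the difference was not tested. A match is a description of letters and no measure of binding.

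The 160 bases before the start of 7 members are printed 5′ to 3′ on the gene's strand, with E2F matches in capitals. UHRF1, PCNA and RFC3 fell and have a match within the last 60 bases. MCM6 has overlapping matches on both strands at a pair of places but did not pass the test (−0.25, adjusted p 0.144). ORC3 has a match although its RNA was not lower. FEN1 fell with no match in these bases, and RFC1, which has none either, had overlapping groups.
UHRF1, chr19:4909341-4909500, plus strand: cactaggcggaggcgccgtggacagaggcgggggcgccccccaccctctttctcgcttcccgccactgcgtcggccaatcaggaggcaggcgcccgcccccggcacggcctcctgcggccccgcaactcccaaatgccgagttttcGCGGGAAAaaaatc
PCNA, chr20:5126623-5126782, minus strand: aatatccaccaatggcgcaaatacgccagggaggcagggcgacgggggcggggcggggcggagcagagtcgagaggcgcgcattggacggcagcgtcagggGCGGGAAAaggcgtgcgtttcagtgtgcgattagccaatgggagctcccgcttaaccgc
RFC3, chr13:33817989-33818148, plus strand: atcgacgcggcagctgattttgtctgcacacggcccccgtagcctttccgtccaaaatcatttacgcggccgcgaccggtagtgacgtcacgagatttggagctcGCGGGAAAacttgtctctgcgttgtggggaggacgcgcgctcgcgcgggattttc
MCM6, chr2:135876444-135876603, minus strand: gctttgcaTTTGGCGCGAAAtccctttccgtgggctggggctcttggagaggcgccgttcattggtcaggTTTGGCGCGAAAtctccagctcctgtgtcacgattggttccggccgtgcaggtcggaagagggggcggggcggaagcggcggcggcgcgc
ORC3, chr6:87589975-87590134, plus strand: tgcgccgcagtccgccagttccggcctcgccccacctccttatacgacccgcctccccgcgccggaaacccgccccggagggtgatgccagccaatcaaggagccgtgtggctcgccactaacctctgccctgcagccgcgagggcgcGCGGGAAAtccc
FEN1, chr11:61792751-61792910, plus strand: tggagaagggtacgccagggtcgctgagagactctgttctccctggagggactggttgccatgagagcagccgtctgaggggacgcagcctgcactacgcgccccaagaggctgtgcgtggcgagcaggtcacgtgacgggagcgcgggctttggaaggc
RFC1, chr4:39366363-39366522, minus strand: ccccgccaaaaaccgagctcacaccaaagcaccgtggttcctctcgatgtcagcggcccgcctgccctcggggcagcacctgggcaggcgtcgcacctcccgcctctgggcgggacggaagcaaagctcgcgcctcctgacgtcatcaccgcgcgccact
Positions of the matches are given within the searched window, and those in other promoters were not compared. Overlapping matches on opposite strands were counted separately. In the 19 promoters there were 25 matches, of which 21 began before the start. Their median position was −31, counted from the first transcribed base as 0, and 14 members had a match that began in the last 100 bases before it. The CCAAT box, bound by NF-Y, was found in 25 of the 44 promoters (56.8%, against 35.7% of all and 37.1% of the fitted genes' promoters), and the GC box GGGCGG, bound by SP1, in 33 (75.0%, against 44.6% of all and 69.6% of the fitted genes' promoters). The cell cycle homology region (TTTGAA or TTCGAA), known from promoters of mitotic genes, was found in 2 (4.55%, against 16.6% of all and 11.4% of the fitted genes' promoters).

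Across the whole set, 29 of the 50 members fell after JG342 and none rose, with a median log2 fold change of −0.44. Of all fitted genes 18.4% passed, 7.62% as lower and 10.8% as higher, and the median was 0.027. With libraries scaled to equal medians, the median of all genes moved to −0.035, 1200 genes were lower and 966 higher against 917 and 1304 without scaling, and 32 members fell. The log2 fold changes ran from −0.86 for MCM10 to 0.22 for ORC3, and 47 of the 50 were below 0, against 46.5% of all fitted genes. Both DMSO libraries were above both JG342 libraries for 44 members, against 28.2% of all fitted genes, and the reverse held for ORC3 alone. The groups did not overlap in either direction for 62.1% of all fitted genes. The summed level of the members was 4190 and 4557 TPM with DMSO and 3024 and 3366 TPM with JG342, which is 0.421% and 0.458% of all TPM against 0.304% and 0.338%. The groups do not overlap in this sum.

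Libraries numbered 2 held more of these RNAs than libraries numbered 1 within either treatment. DMSO replicate 2 was above DMSO replicate 1 for 43 members, and JG342 replicate 2 above JG342 replicate 1 for 42, against 7092 and 5212 of the 12042 fitted genes. The difference between treatments was close in the same-numbered pairs, with a median of −0.49 in pair 1 and −0.44 in pair 2. The medians of all fitted genes were 0.065 and −0.016. In both pairs 47 members moved the same way, as did 9097 of the 12042 fitted genes. With the replicate number as a block, 40 members passed as lower and none as higher (15.7% of all fitted genes were lower in that fit), and with the block and libraries scaled to equal medians 43 did (19.2% of all). The count also rested on single libraries, and fewer of all genes passed as lower in each fit with a library left out. These fits have 1 residual degree of freedom. The members' median was −0.51 without DMSO replicate 1 and −0.40 without DMSO replicate 2 (0.012 and 0.047 for all genes). It was −0.39 without JG342 replicate 1 and −0.53 without JG342 replicate 2 (0.0032 and 0.052 for all genes). CDC6, FEN1, GMNN, MCM4, MCM10 and UHRF1 fell in all of these fits and under each of the 13 alternatives tried, and the other 23 members that fell missed the threshold without DMSO replicate 2.

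**Figure D1:**
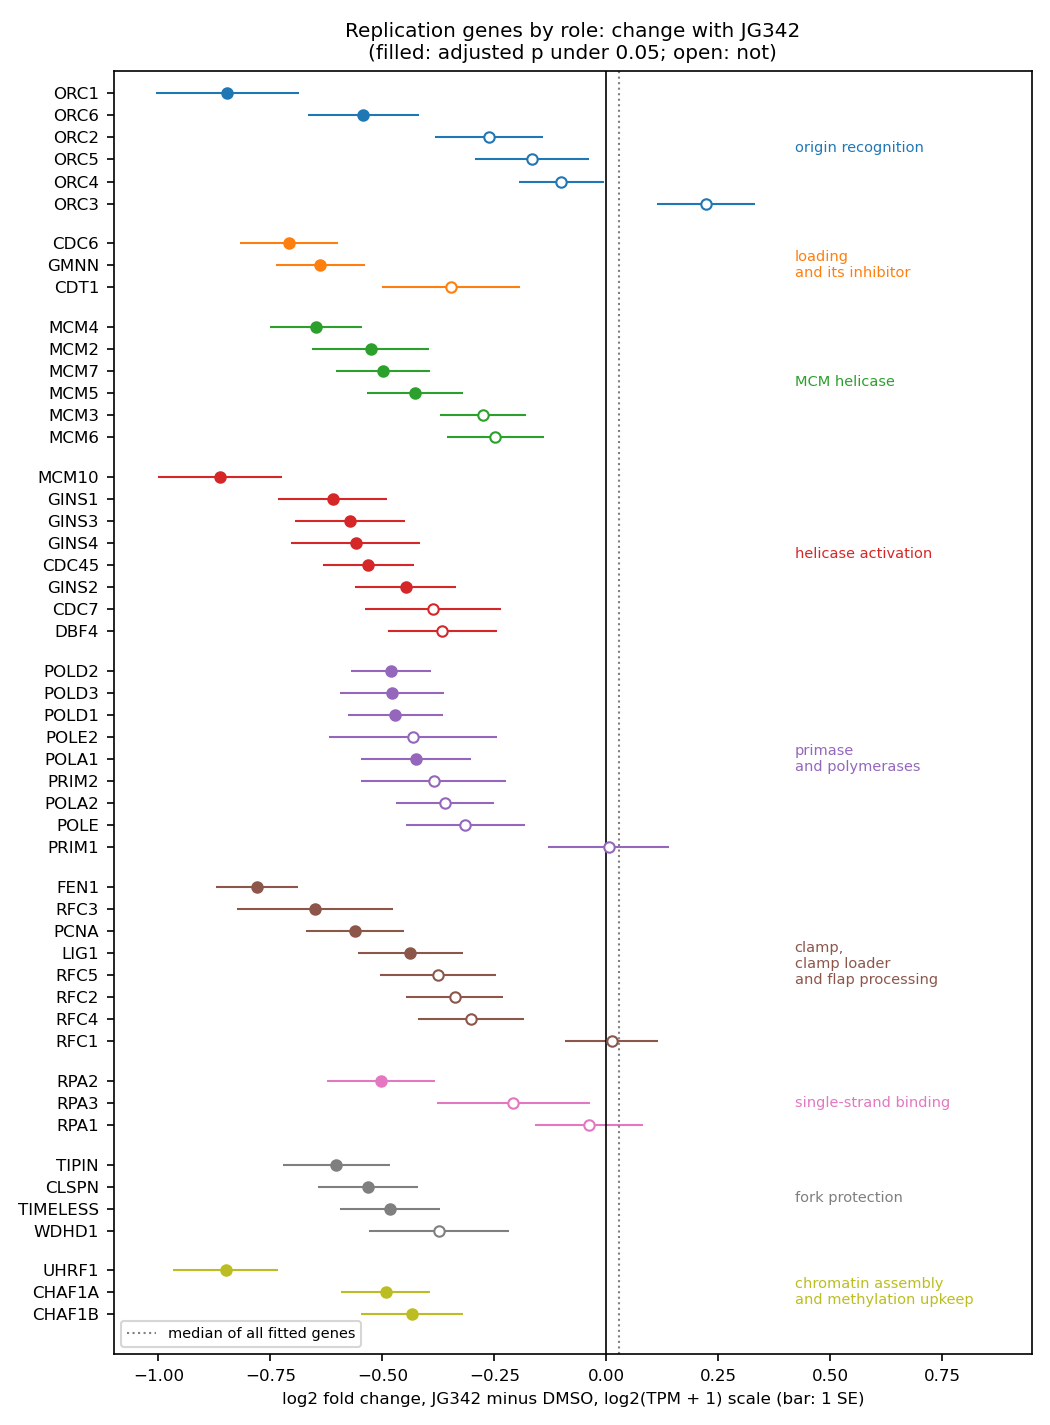
Log2 fold change of each of the 50 replication genes (JG342 minus DMSO on the log2(TPM + 1) scale, horizontal axis), with bars of 1 SE and genes grouped by role. Filled points passed at an adjusted p under 0.05; all 29 of them lie left of 0, and the dotted line is the median of all fitted genes (0.027).

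**Figure D2:**
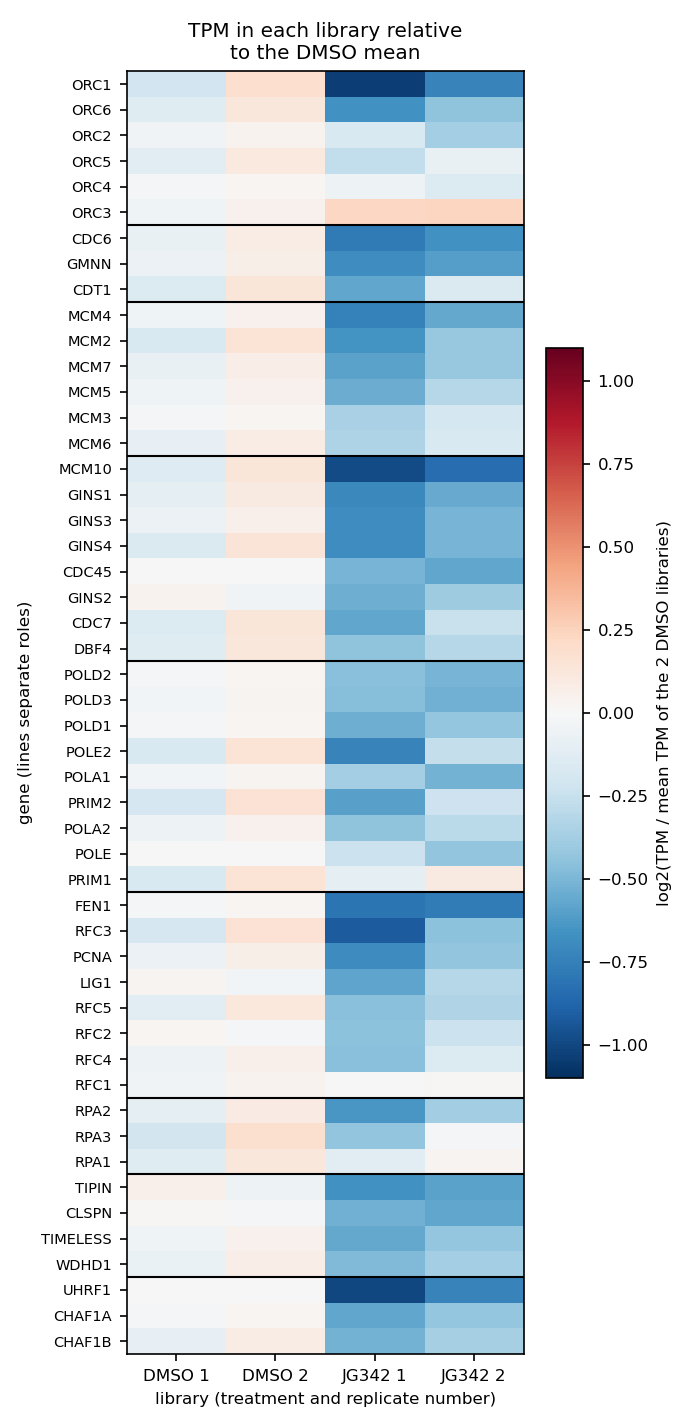
TPM of each member in each library, as the log2 ratio to the mean of the 2 DMSO libraries, in colour (blue lower, red higher), with black lines between roles. The JG342 columns are blue for most genes, JG342 replicate 1 more so than JG342 replicate 2, while the rows of ORC3, PRIM1, RFC1 and RPA1 are pale or red.

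The origin recognition complex marks the sites where replication can begin, and its subunits did not share a pattern. ORC1 and ORC6 fell and ORC2, ORC3, ORC4 and ORC5 did not pass. ORC1 (NM_001190818), the subunit whose protein is known to vary most over the cell cycle, was at 39.4 and 52.1 TPM with DMSO and 22.3 and 27.5 TPM with JG342. Its mean fell by 45.6% (−0.85 ± 0.16, adjusted p 0.00865), and the groups do not overlap. ORC6 (NM_014321), the smallest subunit, was at 83.3 and 99.2 TPM with DMSO and 57.5 and 67.1 TPM with JG342, again without overlap (−0.54 ± 0.12, adjusted p 0.0185). The most abundant subunit RNA was that of ORC4 (NM_001190879), an ATP-binding subunit, at 140.2 and 145 TPM with DMSO and 137 and 128 TPM with JG342 (−0.10 ± 0.094, adjusted p 0.491). Its DMSO libraries were only slightly above its JG342 libraries. ORC2 (NM_006190), part of the core of the complex, measured 35.3 and 37.1 TPM with DMSO and 32.3 and 27.9 TPM with JG342 (−0.26 ± 0.12, adjusted p 0.163). Its adjusted p was 0.064 with the replicate block and 0.0259 with the block and equal medians. ORC5 had overlapping groups (−0.17 ± 0.13, adjusted p 0.394). ORC3 (NM_001197259), the core partner of ORC2, was at 31.6 and 33.8 TPM with DMSO and 38.2 and 38.4 TPM with JG342, the single member with both JG342 libraries above both DMSO libraries (0.22 ± 0.11, adjusted p 0.19). The mean of ORC1 and ORC6 divided by the mean of the other subunits was 1.01 and 1.18 with DMSO and 0.666 and 0.820 with JG342. This ratio, like the other subunit ratios below, was chosen after the values were seen and carries no test.

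Loading of the helicase depends on CDC6 and CDT1, and geminin (GMNN) binds CDT1 to prevent a second loading in the same cycle. The loader ATPase CDC6 (NM_001254) was at 73.4 and 82.3 TPM with DMSO and 45.4 and 49.0 TPM with JG342 and fell by 39.3% (−0.71 ± 0.11, adjusted p 0.00384). GMNN (NM_001251989) was at 125 and 137 TPM with DMSO and 81.5 and 86.3 TPM with JG342 and fell by 36.1% (−0.64 ± 0.099, adjusted p 0.00401). For both genes the DMSO libraries stand clearly above the JG342 libraries. CDT1 (NM_030928) measured 48.4 and 59.0 TPM with DMSO and 36.2 and 48.2 TPM with JG342, and DMSO replicate 1 and JG342 replicate 2 nearly met (−0.35 ± 0.16, adjusted p 0.154; 0.00548 with the replicate block). The ratio of CDT1 to GMNN was 0.386 and 0.430 with DMSO and 0.444 and 0.558 with JG342.

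The MCM2 to MCM7 proteins form the ring of the replicative helicase in equal numbers, and their RNAs were among the most abundant of the set, with means of 123 to 244 TPM with DMSO. MCM2, MCM4, MCM5 and MCM7 fell, and the median log2 fold change over the ring was −0.46. None of the 6 had overlapping groups. MCM4 (NM_005914) was at 175 and 186 TPM with DMSO and 108 and 122 TPM with JG342 and fell by 36.3% (−0.65 ± 0.10, adjusted p 0.00411). MCM2 (NM_004526), a main substrate of the CDC7 kinase, was at 129 and 160.5 TPM with DMSO and 91.8 and 108 TPM with JG342, where the DMSO libraries differed most from each other among these genes (−0.53 ± 0.13, adjusted p 0.0244). MCM7 (NM_001278595) was at 219 and 243 TPM with DMSO and 153 and 173 TPM with JG342 (−0.50 ± 0.10, adjusted p 0.0128). MCM5 (NM_006739), which forms the gate of the ring with MCM2, was at 186 and 199 TPM with DMSO and 132 and 154 TPM with JG342 (−0.43 ± 0.11, adjusted p 0.0252). The DMSO libraries of these genes were each higher than both JG342 libraries. MCM6 (NM_005915) was at 115 and 130.2 TPM with DMSO and 97.3 and 109 TPM with JG342 (−0.25 ± 0.11, adjusted p 0.144; 0.0232 with the replicate block). MCM3 likewise missed the threshold without the block and passed with it (−0.28 ± 0.096, adjusted p 0.0782; 0.00457 with the replicate block). The highest of the 6 RNAs was 2.09 and 1.90 times the lowest with DMSO and 2.08 and 1.97 times with JG342, so the spread of levels within the ring stayed in the same range.

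Helicase activation gave 6 falls among 8 genes, the largest share of any role with more than 4 members. MCM10 (NM_018518), which is needed for the helicase to start unwinding, had the largest fall of all members, from 26.4 and 32.0 TPM to 14.8 and 16.4 TPM, so its mean fell by 46.7% (−0.86 ± 0.14, adjusted p 0.0046). The 4 GINS genes, whose products form a tetramer that binds CDC45 and MCM, all fell, with log2 fold changes of −0.61 to −0.45. GINS1 (NM_021067) was at 41.4 and 47.5 TPM with DMSO and 27.1 and 30.3 TPM with JG342 (−0.61 ± 0.12, adjusted p 0.0107). GINS3 (NM_001126129) was at 30.7 and 33.3 TPM with DMSO and 19.9 and 22.5 TPM with JG342 (−0.57 ± 0.12, adjusted p 0.0142). GINS4 (NM_032336), the lowest of the tetramer, was at 20.8 and 25.5 TPM with DMSO and 14.4 and 16.2 TPM with JG342 (−0.56 ± 0.14, adjusted p 0.0281). In each GINS gene the lower DMSO library was above the higher JG342 library. CDC45, which bridges GINS and MCM, also fell (−0.53 ± 0.10, adjusted p 0.00951). The kinase pair did not pass: CDC7 had a log2 fold change of −0.39 ± 0.15 (adjusted p 0.109; 0.00744 with the replicate block). DBF4 (NM_001318060), its activating partner, was at 50.5 and 60.3 TPM with DMSO and 40.8 and 44.5 TPM with JG342 (−0.37 ± 0.12, adjusted p 0.0677; 0.00295 with the replicate block). DBF4 has a processed pseudogene, DBF4P1, that matches 25.03% of its transcript at 96.93% identity, so some of its reads are uncertain.

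Among the primase and replicative polymerase genes 4 of 9 fell, with a median of −0.43. DNA polymerase delta copies the lagging strand, and POLD2 (NM_001127218), its most abundant subunit RNA, was at 247 and 254 TPM with DMSO and 183 and 176 TPM with JG342 (−0.48 ± 0.089, adjusted p 0.0083). POLD3 (NM_006591), an accessory subunit, was at 28.3 and 29.4 TPM with DMSO and 20.8 and 20.02 TPM with JG342 (−0.48 ± 0.12, adjusted p 0.0229). POLD1 (NM_001256849), the catalytic subunit, was at 57.9 and 59.8 TPM with DMSO and 40.5 and 43.9 TPM with JG342 (−0.47 ± 0.11, adjusted p 0.0168). The 3 genes thus fell by similar amounts, with changes in mean TPM of −28.5%, −29.2% and −28.3% and no overlap. POLA1, the catalytic subunit of polymerase alpha, fell as well (−0.43 ± 0.12, adjusted p 0.0424), though in none of the fits with a library left out, and its partner POLA2 stood just outside the threshold (−0.36 ± 0.11, adjusted p 0.0506; 0.00334 with the replicate block). Polymerase epsilon copies the leading strand. Its catalytic subunit POLE had a log2 fold change of −0.31 ± 0.13 (adjusted p 0.134). For POLE the adjusted p was 0.0621 with the replicate block and 0.0241 with the block and equal medians. POLE2 (NM_001197330), at 8.20 and 10.2 TPM with DMSO and 5.53 and 7.66 TPM with JG342, was among the 2 lowest members (−0.43 ± 0.19, adjusted p 0.143; 0.0263 with the replicate block).

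The 2 subunits of primase, which lays the RNA primers, showed unlike values. The catalytic PRIM1 (NM_000946) was at 39.6 and 49.1 TPM with DMSO and 41.3 and 47.4 TPM with JG342 (0.0049 ± 0.13, adjusted p 0.985). Its groups overlap fully, and the sign of this difference turned with the scaling of the libraries. PRIM2 had a log2 fold change of −0.39 ± 0.16 (adjusted p 0.131; 0.00808 with the replicate block), with no overlap. The ratio of PRIM1 to PRIM2 was 1.59 and 1.56 with DMSO and 2.21 and 1.98 with JG342. PRIM2 has pseudogenes that match up to 46.4% of its transcript at 98.6% identity, and PRIM1 shares exons with another annotated gene on its strand, AC117378.1, so the split of reads is uncertain for both. The same holds for POLA2 and POLD1, whose exons overlap those of AP000944.2 by 2012 bases and of AC020909.1 by 426 bases on the same strand. On the opposite strand, GENCODE exons overlap those of GINS4 by up to 1159 bases, MCM2 by up to 1113, ORC4 by up to 430, GINS3 by 394, CLSPN by 280 and MCM7 by 277, and reads of such pairs cannot be told apart without strand.

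PCNA is the sliding clamp that holds polymerases on DNA, and PCNA (NM_002592) had the highest level of all members. It was at 532 and 584 TPM with DMSO and 345 and 412 TPM with JG342 and fell by 32.1% (−0.56 ± 0.11, adjusted p 0.00998). The flap nuclease FEN1 (NM_004111), which trims Okazaki fragments, was at 196 and 202 TPM with DMSO and 114 and 117 TPM with JG342 and fell by 42% with close replicates and the smallest p of the set (−0.78 ± 0.091, adjusted p 0.00116). DNA ligase I, LIG1 (NM_000234), which seals the fragments, was at 68.9 and 66.0 TPM with DMSO and 45.2 and 54.2 TPM with JG342 (−0.44 ± 0.12, adjusted p 0.0334). Each of the 3 had every DMSO library above every JG342 library. FEN1 has a pseudogene, FEN1P1, that matches 50.04% of its transcript at 95.04% identity.

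The clamp loader opens PCNA and is built from the large subunit RFC1 and the small subunits RFC2 to RFC5. RFC3 (NM_002915) was at 28.8 and 36.6 TPM with DMSO and 17.3 and 23.8 TPM with JG342, with unequal replicates in both treatments (−0.65 ± 0.17, adjusted p 0.0327). RFC2, RFC4 and RFC5 had log2 fold changes of −0.34, −0.30 and −0.38 and did not pass (adjusted p 0.0588, 0.109 and 0.0765). With the replicate block they did (0.00217, 0.00334 and 0.00992). By contrast RFC1 (NM_001204747) was at 46.9 and 49.5 TPM with DMSO and 48.4 and 48.8 TPM with JG342 (0.012 ± 0.10, adjusted p 0.951), a span of under 3 TPM with the treatments intermixed, and the sign of this difference turned with the scaling. RFC1 divided by the mean of the small subunits was 0.618 and 0.611 with DMSO and 0.872 and 0.725 with JG342.

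RPA coats single-stranded DNA at the fork as a trimer of RPA1, RPA2 and RPA3. RPA2 (NM_001286076) was at 94.2 and 107 TPM with DMSO and 64.5 and 77.3 TPM with JG342 and fell by 29.6% (−0.50 ± 0.12, adjusted p 0.022). The large DNA-binding subunit RPA1 (NM_001355120) was at 66.1 and 79.0 TPM with DMSO and 66.6 and 74.3 TPM with JG342 (−0.039 ± 0.12, adjusted p 0.854), and the small RPA3 (NM_002947) was at 28.6 and 37.0 TPM with DMSO and 24.2 and 32.4 TPM with JG342 (−0.21 ± 0.17, adjusted p 0.428). The groups overlap for RPA1 and RPA3 and not for RPA2. The ratio of RPA1 to RPA2 was 0.702 and 0.737 with DMSO and 1.03 and 0.961 with JG342.

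**Figure D3:**
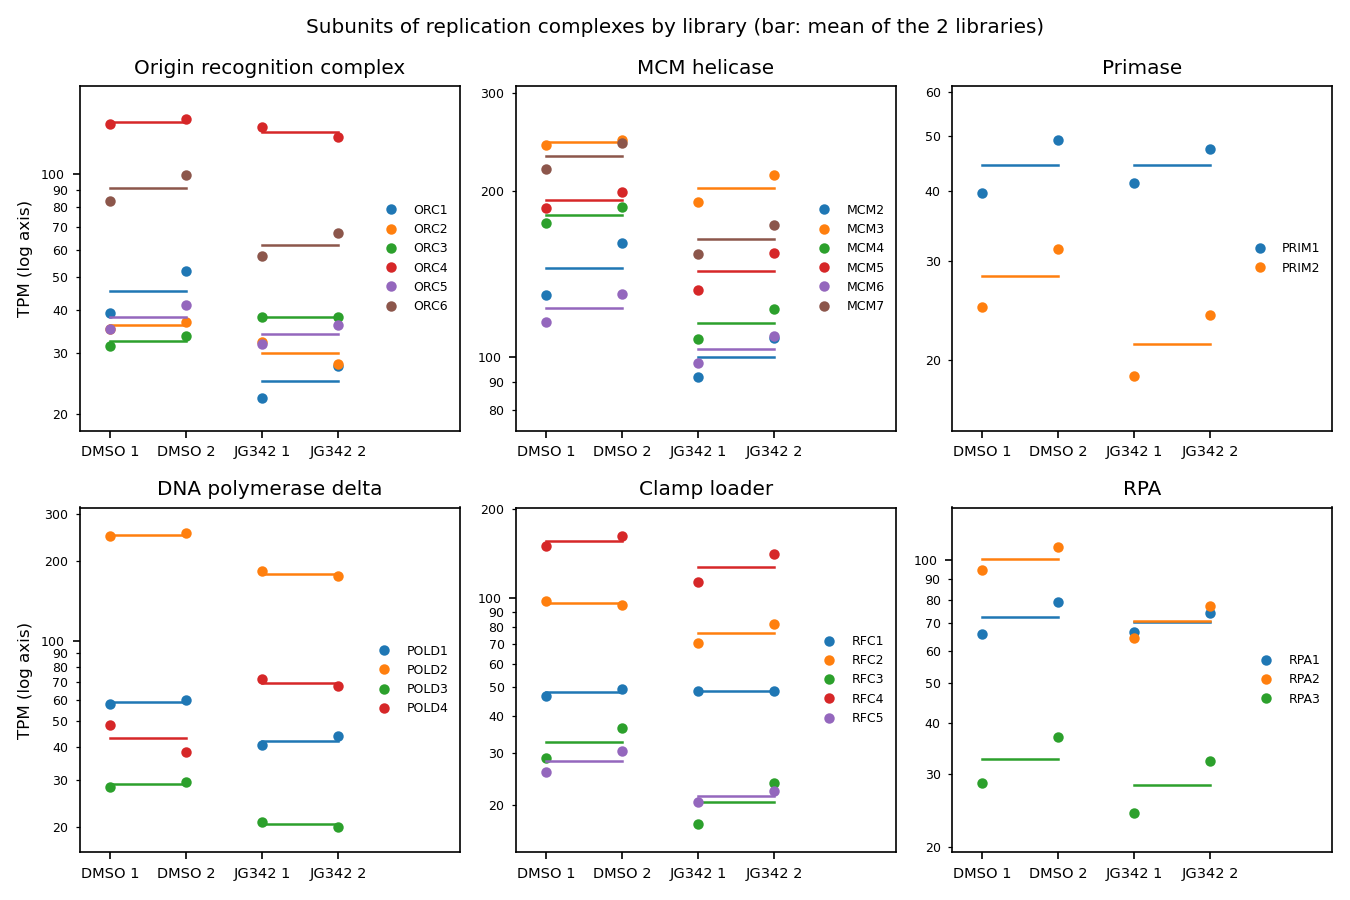
TPM (log axis) of the subunits of 6 replication complexes in each library, with bars at the mean of the 2 libraries of a treatment. ORC1 and ORC6 drop while ORC3 does not, PRIM1, RFC1 and RPA1 stay level beside subunits with lower JG342 values, and POLD4, which is no member of the set, is the subunit of polymerase delta that stands higher with JG342.

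Fork protection and chromatin genes completed the set. TIPIN and TIMELESS form a complex that keeps polymerase and helicase together, and claspin (CLSPN) passes the checkpoint signal from ATR to CHEK1. TIPIN (NM_001289986) was at 30.9 and 28.6 TPM with DMSO and 18.8 and 19.8 TPM with JG342 (−0.60 ± 0.12, adjusted p 0.0103). CLSPN (NM_001190481) was at 35.9 and 35.2 TPM with DMSO and 24.7 and 23.9 TPM with JG342 (−0.53 ± 0.11, adjusted p 0.013). TIMELESS (NM_001330295) was at 50.8 and 54.2 TPM with DMSO and 35.5 and 39.1 TPM with JG342 (−0.48 ± 0.11, adjusted p 0.0185). These 3 genes fell without overlap, with changes in mean TPM of −35.3%, −31.7% and −29%. WDHD1 (NM_001008396), an adaptor that ties polymerase alpha to the helicase, was at 7.25 and 8.0 TPM with DMSO and 5.44 and 5.87 TPM with JG342, the lowest level with DMSO of the 50 (−0.37 ± 0.16, adjusted p 0.129). Its adjusted p was 0.070 with the replicate block and 0.0372 with the block and equal medians.

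UHRF1 reads hemimethylated DNA behind the fork and recruits DNMT1, and CHAF1A and CHAF1B are subunits of chromatin assembly factor 1, which deposits histones on new DNA. UHRF1 (NM_001048201) was at 77.9 and 77.2 TPM with DMSO and 38.8 and 46.6 TPM with JG342 and fell by 44.9% (−0.85 ± 0.12, adjusted p 0.0024). A processed pseudogene matches 36.5% of its transcript at 99.4% identity. CHAF1A (NM_005483) was at 107 and 110.2 TPM with DMSO and 73.2 and 80.7 TPM with JG342 (−0.49 ± 0.10, adjusted p 0.0114). CHAF1B (NM_005441) was at 61.6 and 69.5 TPM with DMSO and 45.7 and 50.8 TPM with JG342 (−0.43 ± 0.11, adjusted p 0.0303). All 3 genes of this group fell, with every DMSO library above every JG342 library.

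The size of the change did not follow the starting level. Across the 50 members, which share libraries and are not independent, the log2 mean TPM with DMSO and the log2 fold change were weakly related, with Pearson's r at −0.12 and Spearman's rho at −0.12. PCNA, at 558 ± 36.4 TPM (SD, n = 2) with DMSO, and MCM10, at 29.2 ± 3.97 TPM, both fell, and WDHD1 with its low level (7.63 ± 0.53 TPM) and the abundant MCM3 (244 ± 4.26 TPM) both missed the threshold.

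Genes that share a promoter region with a member were compared with it, a comparison chosen after the values were seen. Of the 44 members with a promoter entry, 14 have a gene read in the opposite direction from a start within 1000 bases upstream, and 12 of these neighbours were fitted, with starts 103 to 481 bases apart. Among those 12 pairs, 7 members fell, while none of the neighbours fell and 1 rose, which for the neighbours is near the 7.62% lower and 10.8% higher of all fitted genes. The median log2 fold change was −0.51 for the members and 0.023 for their neighbours. The difference within pairs was not tested.

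FEN1 and TMEM258, a subunit of the enzyme that attaches sugars to proteins in the endoplasmic reticulum, start 312 bases apart. TMEM258 was at 356 and 350.3 TPM with DMSO and 426 and 472 TPM with JG342 and rose (0.34 ± 0.093, adjusted p 0.0342), whereas FEN1 fell by 42%. Their GENCODE exons overlap by 166 bases on opposite strands, and whether the counting used strand is not given in the sources used here. CDS2, which starts 386 bases from PCNA and makes a phospholipid precursor, was at 11.1 and 12.1 TPM with DMSO and 14.8 and 12.7 TPM with JG342 (0.23 ± 0.14, adjusted p 0.304). VPS35, a retromer subunit opposite ORC6, was at 69.1 and 81.6 TPM with DMSO and 74.1 and 78.2 TPM with JG342 (0.019 ± 0.11, adjusted p 0.926). Among the 12 neighbours the lowest log2 fold change was that of the splicing factor gene PRPF38A, beside ORC1 (−0.39 ± 0.13, adjusted p 0.0632).

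**Figure D4:**
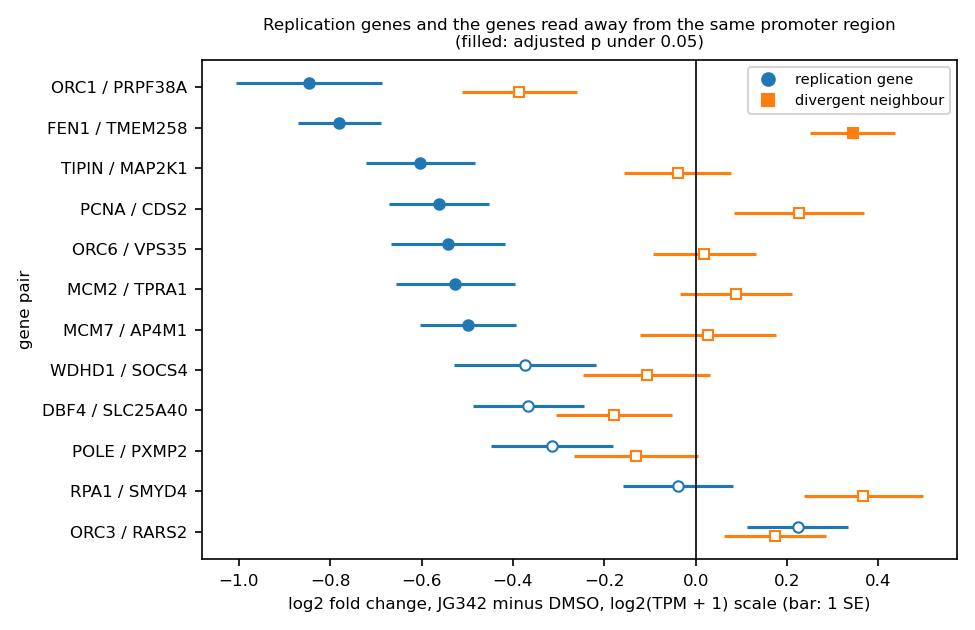
Log2 fold change (JG342 minus DMSO, log2(TPM + 1) scale, bars of 1 SE) of 12 replication genes (circles) and of the genes read away from them (squares), with filled symbols past an adjusted p of 0.05. Filled circles lie left of 0 for 7 genes, and the single filled square, TMEM258, lies right of it.

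Other genes of the cell cycle, from 7 lists drawn up by function, were read beside the members. In these lists 58 genes passed in all, and fewer passed in each fit with a library left out, as among all genes. With the replicate block 73 passed, and with the block and equal medians 78. Of the 12042 fitted genes 2221 passed without the block, 4207 with it and 3985 with the block and equal medians. The shares of all fitted genes that passed as lower were 7.62%, 15.7% and 19.2%. Among 11 origin firing factors 3 fell and none rose, with a median of −0.44, and 7 were lower with the replicate block and 8 with the block and equal medians. The smallest p-values were those of LRWD1, which stabilizes the origin recognition complex on chromatin (82.5 and 94.9 TPM with DMSO and 43.9 and 52.3 TPM with JG342; −0.87 ± 0.12, adjusted p 0.00268), and of the helicase gene RECQL4 (44.1 and 56.1 TPM with DMSO and 30.4 and 34.9 TPM with JG342; −0.60 ± 0.14, adjusted p 0.0199). Among 28 other fork and nascent chromatin factors 11 fell, with a median of −0.33, and 15 were lower with the block and 17 with the block and equal medians. They included topoisomerase gene TOP2A (139 and 149 TPM with DMSO and 89.7 and 90.6 TPM with JG342; −0.67 ± 0.095, adjusted p 0.00276) and the alternative clamp loader subunit DSCC1 (40.3 and 42.4 TPM with DMSO and 24.8 and 22.2 TPM with JG342; −0.79 ± 0.12, adjusted p 0.00315). POLD4, the smallest subunit of polymerase delta, was the single gene of that list that rose, from 48.5 and 38.1 TPM to 71.6 and 67.5 TPM (0.68 ± 0.13, adjusted p 0.00927), and it is named because it stood alone. It passed in 3 of the 4 fits with a library left out, and RECQL4 in 2. POLD4 divided by the mean of POLD1, POLD2 and POLD3 was 0.436 and 0.332 with DMSO and 0.881 and 0.844 with JG342, without overlap. RAD17, of the same list, missed the threshold but also had both JG342 libraries above both DMSO libraries (0.28 ± 0.13, adjusted p 0.169). Its adjusted p was 0.0251 with the replicate block and 0.155 with the block and equal medians.

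E2F, RB and DREAM regulator genes moved in part, and binding of their products to the members' promoters was not measured. Among 19 E2F, RB and DREAM genes 7 fell and 1 rose, with a median of −0.11. The activator E2F2 was at 78.1 and 83.7 TPM with DMSO and 42.0 and 38.6 TPM with JG342 (−0.99 ± 0.11, adjusted p 0.000754), the largest fall of the list, and the atypical repressor E2F8 was at 32.8 and 35.6 TPM with DMSO and 17.4 and 18.2 TPM with JG342 (−0.90 ± 0.12, adjusted p 0.00202). Both had every DMSO library well above every JG342 library. The repressor E2F4 had a log2 fold change of −0.11 ± 0.097 and RB1 one of −0.040 ± 0.16 (adjusted p 0.474 and 0.884), and these were named after their values were seen. LIN37, a DREAM subunit, was the gene that rose (0.40 ± 0.12, adjusted p 0.0496), though in none of the 4 fits with a library left out.

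Among 14 S phase kinases and licensing degraders 7 fell and 1 rose, with a median of −0.42. DTL, which directs CDT1 to degradation, was at 79.2 and 85.2 TPM with DMSO and 52.9 and 55.5 TPM with JG342 (−0.59 ± 0.10, adjusted p 0.0061). CDC25A, the phosphatase that activates CDK2, was at 33.7 and 42.9 TPM with DMSO and 19.7 and 23.6 TPM with JG342 (−0.79 ± 0.15, adjusted p 0.009). The gene that rose was CDKN1A, the inhibitor p21, at 111 and 95.2 TPM with DMSO and 172 and 132 TPM with JG342 (0.55 ± 0.14, adjusted p 0.0257), and it passed in 2 of the 4 fits with a library left out.

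DNA polymerases outside the replisome were listed separately. Of 15 listed genes, most of which serve repair, lesion bypass or mitochondria, 14 were fitted. The median was 0.043. None of them fell and 2 rose, shares near the 7.62% lower and 10.8% higher of all fitted genes. With the block and equal medians 2 passed as lower and 2 as higher. POLI, a lesion bypass polymerase, was at 7.79 and 7.31 TPM with DMSO and 13.3 and 13.2 TPM with JG342 (0.74 ± 0.14, adjusted p 0.00887), and POLL, a repair polymerase, was at 18.7 and 19.4 TPM with DMSO and 25.3 and 27.2 TPM with JG342 (0.44 ± 0.12, adjusted p 0.0342; 0.0575 with equal medians). With a library left out, POLI passed in 3 of 4 fits and POLL in none. Beside these, 4 of the 7 members that encode polymerase alpha, delta or epsilon subunits fell, with a median of −0.43.

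Deoxynucleotide supply and mitosis had the lowest medians of these lists. Among 11 deoxynucleotide genes 9 fell and none rose, with a median of −0.61. The smallest p-values were those of the ribonucleotide reductase subunits RRM2 (878 and 987 TPM with DMSO and 458 and 466 TPM with JG342; −1.01 ± 0.095, adjusted p 0.000357) and RRM1 (157 and 168 TPM with DMSO and 94.2 and 99.5 TPM with JG342; −0.74 ± 0.096, adjusted p 0.00191). RRM2B, of the same list, missed the threshold in the other direction, at 3.58 and 4.70 TPM with DMSO and 6.47 and 5.96 TPM with JG342. Its groups do not overlap (0.50 ± 0.18, adjusted p 0.0851). The adjusted p of RRM2B was 0.0178 with the replicate block and 0.0578 with the block and equal medians. Among 20 mitotic genes 16 fell and none rose, with a median of −0.62. The smallest p-values were those of the spindle checkpoint genes MAD2L1 (120.4 and 138 TPM with DMSO and 71.1 and 74.4 TPM with JG342; −0.81 ± 0.11, adjusted p 0.00181) and BUB1 (120.5 and 144 TPM with DMSO and 80.5 and 83.7 TPM with JG342; −0.68 ± 0.11, adjusted p 0.0052). The median of the 50 replication genes was −0.44, and the difference between the lists was not tested.

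**Figure D5:**
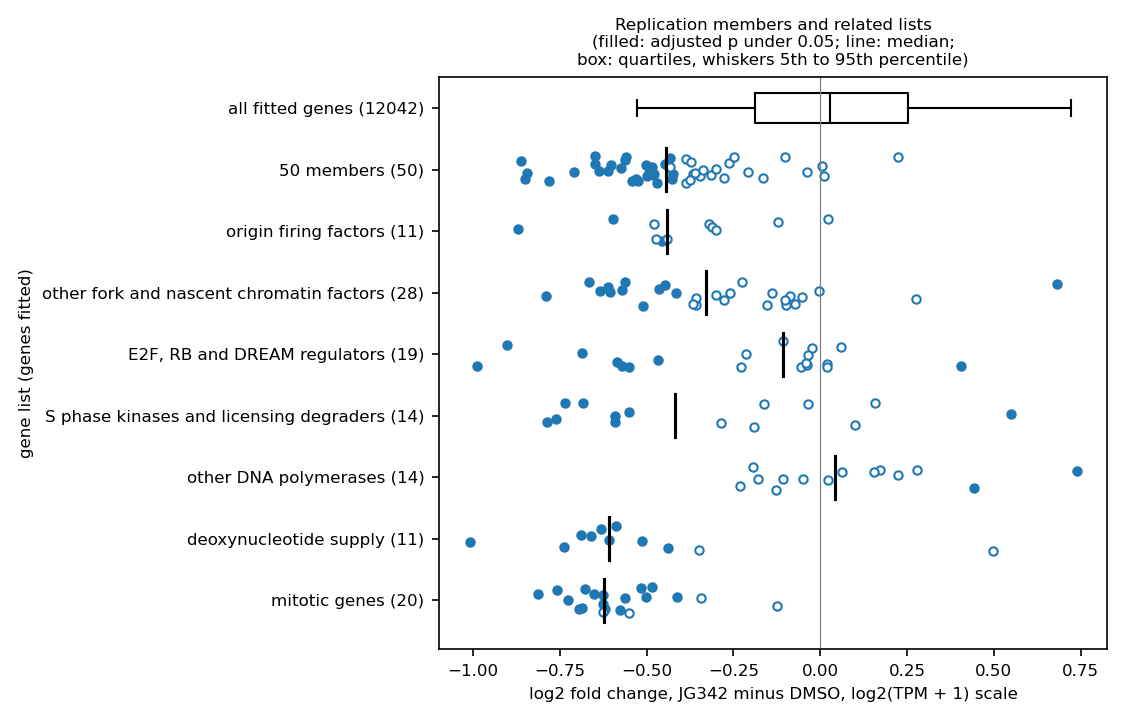
Log2 fold changes (JG342 minus DMSO, log2(TPM + 1) scale) of the 50 members and of 7 related lists, 1 point per gene, filled where the adjusted p was under 0.05, with a black line at each median. The box shows all 12042 fitted genes (quartiles, with whiskers from the 5th to the 95th percentile, and a median of 0.027); the mitotic and deoxynucleotide lists lie farthest left and the other DNA polymerases lie around 0.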

How the data were processed

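RNA from 4 libraries of MM.1S cells was sequenced by a service provider on a BGISEQ-500, per the labels' protocols. The submitters' processing notes name HISAT2 2.0.4, Bowtie2 2.2.5 and RSEM 1.2.12, without their roles. The genome build and annotation are not given in the sources used here. The authors deposited 1 table of per-gene values without a stated unit, taken as TPM because the library sums are close to equal and near the total that TPM has by definition. TPM keeps no depth, so the read numbers given are estimates, from the most frequent product of low TPM and GENCODE 29 transcript length, and entered no test.

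Values were transformed to log2(TPM + 1), genes were kept where the 4 libraries averaged 1 TPM or more, and treatments were compared with limma 3.58.1 in R 4.3.3 (lmFit, eBayes with trend, two-sided, Benjamini-Hochberg over 12042 genes), a procedure tested on simulated data. With 2 residual and 6.89 prior degrees of freedom, most of each gene's error estimate is borrowed from other genes, and p-values measure only the spread between these libraries. The replicate numbers were taken to pair the libraries, because the labels describe libraries of equal number with a common prefix. Within a number, deviations from the treatment mean had a correlation of 0.27 across fitted genes and 0.58 across the members. The blocked fit has an infinite prior, unless libraries are also scaled to equal medians (7.49 degrees of freedom).

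The members and lists were chosen with earlier results of these data known. Named by rule were, in each role, the up to 4 members with the largest absolute change and the 1 with the smallest, and in each list the 2 genes with the smallest p. Near-identical copies were sought with BLAST 2.17.0 in GENCODE 29 transcripts (at least 95% identity over at least 20% of the transcript). Promoters are RefSeq's for GRCh38.p14; the last bases of 39 of the 44 were found in a transcript of the gene on the same strand.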

Additional observations from a re-analysis of the deposited data

How the results depend on the processing

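The direction of the members' median held under all 13 alternatives, from −0.53 to −0.39, and 46 of the 50 log2 fold changes were below 0 under each of them. The median was −0.51 with equal medians, with or without the replicate block. When libraries were left out in turn it ran from −0.53 to −0.39, the count of members that passed as lower ran from 6 to 32 (29 with all libraries), that of the named members that passed from 6 to 26 (26 with all), that of genes in the wider lists from 14 to 57 (58 with all), and that of all genes from 773 to 1905 (2221 with all). Without the filter on low values 11 members, 10 named members, 21 list genes and 828 genes in all passed. Without the variance trend 18 members, 17 named members, 37 list genes and 1508 genes in all passed. Of all genes, 526 passed as lower in that setting, against 917 with the trend. The replicate block, with same-numbered deviations correlated at 0.27, gave 4207 genes in all, and 3985 with equal medians in addition. The block took no member's call away and added 11, as given with the results. The sign turned for members near 0. PRIM1 was negative with equal medians (−0.062, with or without the replicate block) and with quantile normalization (−0.024), and ran from −0.15 to 0.16 with libraries left out in turn. RFC1 was negative with equal medians (−0.055, with or without the replicate block) and with quantile normalization (−0.0062), and ran from −0.028 to 0.052 with libraries left out. RPA1 ran from −0.17 to 0.088 with libraries left out. The causes of the differences between settings were not tested. Scaling to equal medians moved the median of all genes from 0.027 to −0.035 and the split of all calls from 917 lower and 1304 higher to 1200 lower and 966 higher. The depth is known only approximately, and the least covered member, POLE2, rests on about 42.2 reads in JG342 replicate 1.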
